A study of Mus musculus with 15 samples.

Results

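The genes examined were 36 transcription factors that pattern or maintain head mesenchyme or drive epithelial to mesenchymal transition (EMT), the change by which cells of an epithelium become loose, migrating mesenchyme cells. They were taken by name from the probes of an Illumina bead array which measured RNA of single mouse heads taken at embryonic day 9.5, with 1 head per array. Of the 36 genes, 33 had at least 1 probe of that name, out of 19057 genes named on the array. Prrx2, a homeodomain factor related to Prrx1, the osteoblast factor Runx2 and the nuclear receptor Nr2f1 had no probe of that name. The forkhead factor Foxf2, the homeodomain factors Msx2 and Lhx6, and the T-box factors Tbx15 and Tbx18 had probes that were detected on too few arrays to be tested: 0 arrays for the first 4 genes and 2 arrays for Tbx18. The other 28 genes were tested, and 21 of these were detected on all 15 arrays.

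The study deleted Twist1, which encodes a basic helix-loop-helix factor, in the mesoderm of the head and asked which genes depend on it there. All embryos were of mixed C57Bl/6 x 129 x BALB/c descent, and every head carried at least 1 floxed Twist1 allele. CM-CKO heads (n = 4) were Twist1 flox/del with 1 Mesp1-Cre allele, CM-Het heads (n = 4) were Twist1 flox/wt with 1 Mesp1-Cre allele, Het heads (n = 4) were Twist1 flox/del without Cre, and Control heads (n = 3) were Twist1 flox/wt without Cre. The deleted allele was in all cells of CM-CKO and Het heads, so that a CM-CKO head was bred to have no Twist1 copy in the Cre lineage and 1 copy elsewhere. The labels do not say whether embryos came from separate litters. Mesp1-Cre is expressed in early mesoderm from the Mesp1 locus, so both Cre groups also lack 1 copy of Mesp1. The arrays lay on 3 slides: CM-CKO 1, 2 and 3 shared slide 1 with Het 1. On slide 2 were the first 2 CM-Het heads, Het 2, Het 3 and Control 1, and on slide 3 were CM-CKO 4, the other two CM-Het heads, Het 4, Control 2 and Control 3. Each head mixes cranial mesoderm with neural crest, brain, ectoderm, endoderm, vessels and blood. Fewer cells of a type and less RNA per cell cannot be told apart in such samples.

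Head mesenchyme comes from cranial mesoderm and from neural crest, and both hold overlapping sets of these factors. The Snail and Zeb repressors shut down epithelial adhesion genes during EMT, while forkhead, homeodomain, T-box and odd-skipped factors give mesenchyme of the face, skull and arches its regional identity. TWIST1 binds E-boxes, DNA motifs with the letters CANNTG, as a dimer with E proteins such as the product of Tcf3, and in mouse it is needed for head mesenchyme and skull vault formation.

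Levels are given as log2 of the background-corrected and quantile-normalized signal, and differences as log2 changes from 1 limma fit of all 15 arrays, with the standard error (SE) of the fit. A gene passed at an adjusted p under 0.05 (Benjamini-Hochberg) across the 11625 genes in the fit. Twist1 itself had log2 levels of 9.23, 8.94, 9.13 and 9.34 in CM-CKO heads, 10.04, 9.76, 10.01 and 9.84 in CM-Het heads, 8.62, 9.13, 8.80 and 9.32 in Het heads and 9.87, 9.94 and 9.95 in Control heads. CM-CKO and Het heads, which carry the deleted allele, all lay below every CM-Het and Control head. The CM-CKO level was 59.0% of Control (log2 change −0.76, adjusted p = 0.0063 by limma), and the Het level was 51.6% of Control (−0.95, adjusted p = 0.11 by limma). Twist1 was not lower in CM-CKO than in Het heads (0.19, adjusted p = 0.425 by limma), and the place of the probe in the gene was not used here, so this level does not check the labels of CM-CKO against Het. Nor does it check CM-Het against Control, whose means were 9.91 and 9.92.

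Some markers of other cell types moved with the CM-CKO genotype. Of 14 red blood cell markers 11 were kept, and their mean log2 level was 9.71, 10.84, 9.24 and 11.33 in CM-CKO 1 to 4, against 7.92 to 8.64 over the 11 heads of the other groups. The summed erythroid signal was 43264 to 67588 in CM-CKO heads and 30931 to 41836 in the others. The rise was uneven over the list. Against Control 7 of the 11 passed (limma), all higher, beside 7.23% of all genes, and the log2 changes ran from −0.04 to 2.95. The globins Hbb-bh1 and Hbb-y had means of 13.63 and 13.81 in CM-CKO heads and 13.67 and 13.68 in Control heads. Alas2 and Slc4a1 had 11.28 and 12.79 in CM-CKO heads and 8.34 and 10.04 in Control heads. For endothelial markers (9 of 10 kept) the mean was 7.28 to 7.56 in CM-CKO heads and 7.63 to 7.95 in the others. Neural crest markers (4 of 7 kept) ran from 9.32 to 9.61 in CM-CKO heads and from 9.22 to 9.55 in the others. For brain markers (8 of 10 kept) the mean was 7.42 to 7.66 in CM-CKO heads and 7.67 to 7.88 in the others. Only 1 of these 8 passed against Control (limma), as lower, and the log2 changes ran from −1.08 to 0.11, with 3 above 0. For surface ectoderm and pharynx epithelium (7 of 8 kept) the mean was 7.37 to 7.91 in CM-CKO heads and 7.32 to 7.68 in the others. Trunk markers (3 of 8 kept) lay between 4.67 and 5.12 in all heads, and macrophage markers (2 of 5 kept) between 4.48 and 5.05. In the heart list 3 of 6 were kept, at 5.99 to 6.38 in CM-CKO heads (summed signal 466 to 662) and 5.22 to 5.66 in the others (131 to 184). Myh6, Tnnt2 and Myl7, which define heart muscle, were not kept, while the cardiac actin gene Actc1 was 2.26 higher on the log2 scale in CM-CKO than in Control heads (adjusted p = 5.82e-07 by limma). The other kept heart markers, Nkx2-5 and Ttn, differed by −0.20 and −0.05 without passing, so the higher heart values rest on Actc1. Beyond the erythroid covariate given with the members, the part of these lists in the results was not tested.

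Few of the 28 factors passed, and each one that did was lower in CM-CKO heads. Against Control, 2 were lower (Foxp1 and Osr2) and 0 higher, where 7.23% of all genes passed (3.96% higher and 3.28% lower). Against Het, 3 were lower (Alx4, Foxp1 and Prrx1) and 0 higher, where 8.47% of all genes passed (4.15% higher and 4.33% lower). Against CM-Het, 2 were lower (Foxp1 and Osr2) and 0 higher, where 9.91% of all genes passed (5.29% higher and 4.62% lower). These shares of the members, at 2 or 3 of 28, lie near the background. The 3 comparisons share the CM-CKO heads, so their calls are not independent.

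Most members nevertheless lay a little below 0. The log2 change was negative for 23 of 28 against Control, 24 of 28 against Het and 19 of 28 against CM-Het, while it was negative for 6370, 6750 and 6566 of the 11625 genes. The median change of the members was −0.18 against Control, −0.26 against Het and −0.09 against CM-Het, and that of all genes was −0.03, −0.04 and −0.03. Without adjustment 11, 14 and 8 of the 28 had p under 0.05 (limma), as did 23.3%, 23.8% and 25.1% of all genes. The erythroid marker mean moves with the same heads: with that mean as a covariate the member medians were −0.05, −0.17 and 0.04 and 0 members passed in each comparison, in a fit where the covariate takes higher values in every CM-CKO head than in any other. The Foxp1 changes in that fit were −0.67, −0.58 and −0.53, with adjusted p = 0.205, 0.371 and 0.358.

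**Figure D1:**
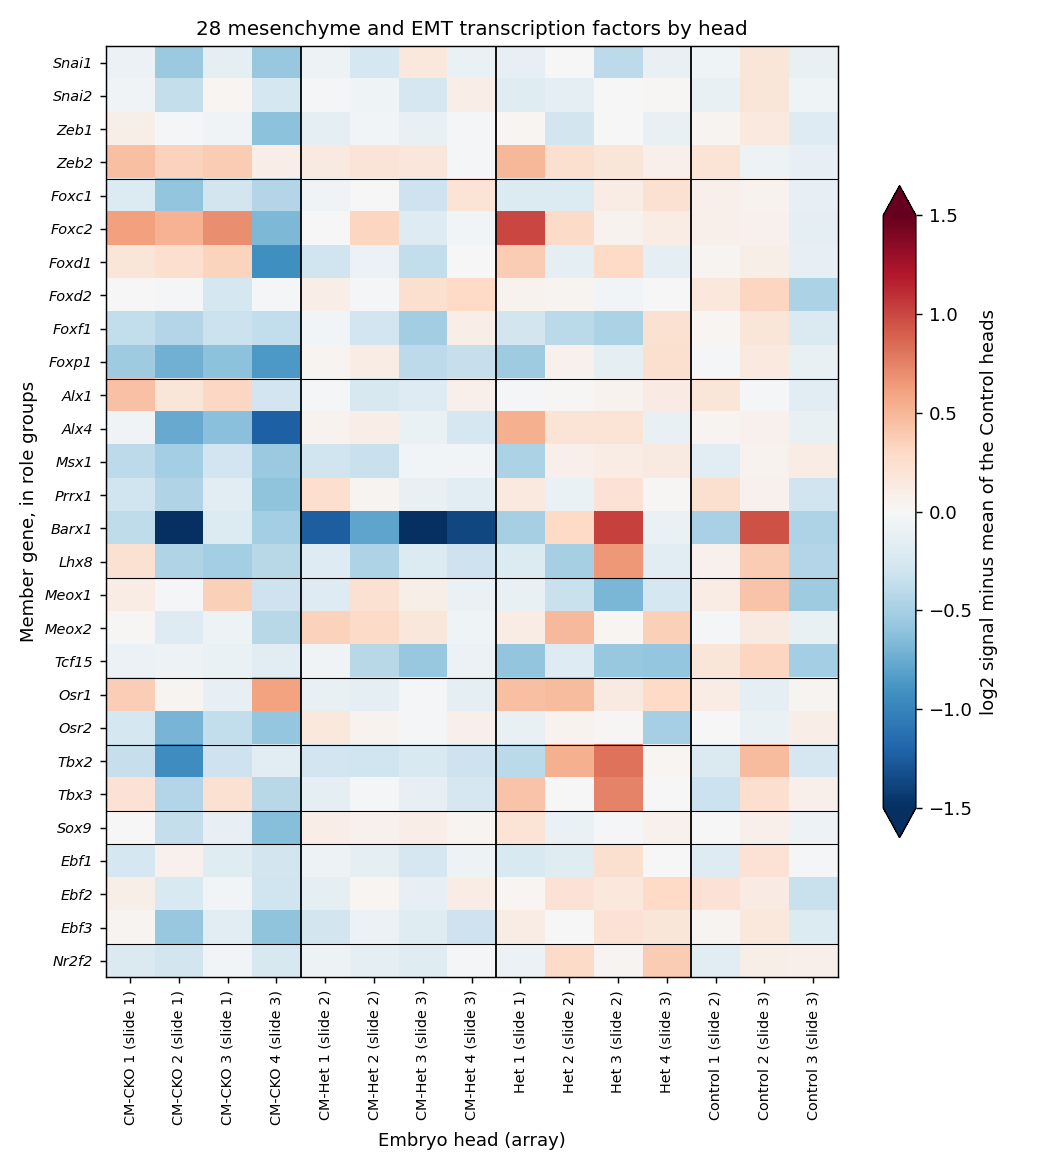
The heat map gives, for each of the 28 tested factors (rows, in role groups) and each of the 15 heads (columns, with the slide), the log2 signal minus the mean of the Control heads. Foxp1, Osr2 and Prrx1 are blue in all 4 CM-CKO heads, as are members that did not pass, such as Foxc1 and Msx1. Barx1 varies most between heads, with the lowest value (4.32) in CM-CKO 2.

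**Figure D2:**
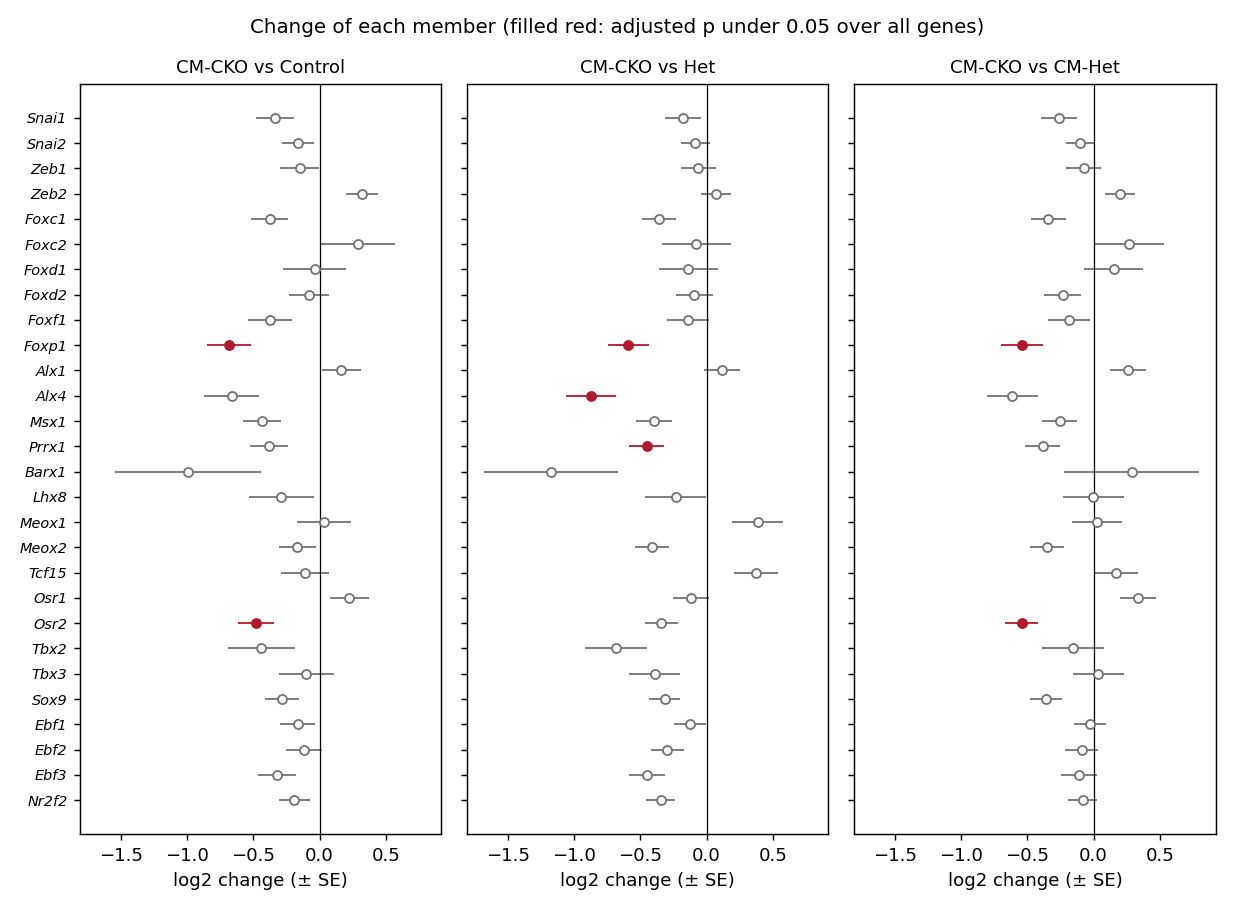
Points are the log2 changes of the 28 factors in CM-CKO against Control, Het and CM-Het heads, with bars of 1 SE, and filled red points passed at adjusted p under 0.05 over all genes. The red points are Foxp1 and Osr2 (left), Foxp1, Alx4 and Prrx1 (middle) and Foxp1 and Osr2 (right), all on the negative side.

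The EMT repressors did not pass in the fit by genotype with 1 probe per gene. Snai1, a zinc finger repressor of E-cadherin, had log2 levels of 9.04, 8.57, 8.99 and 8.56 in CM-CKO heads and 9.06, 9.31 and 9.01 in Control heads, and the groups overlapped by 1 head (−0.34, 95% interval −0.65 to −0.03, adjusted p = 0.176). A second, dimmer Snai1 probe, detected on 13 arrays, differed by −0.54 from CM-Het with adjusted p = 0.0373 where each probe was fitted on its own. With the mean of its 2 probes Snai1 was lower than in Control (−0.42, adjusted p = 0.0437) and CM-Het (−0.40, adjusted p = 0.033). Snai2, its close relative, differed by −0.16 from Control (interval −0.42 to 0.09) and Zeb1 by −0.15 (interval −0.46 to 0.16). Zeb2, which encodes a zinc finger homeodomain repressor, had levels of 8.83, 8.72, 8.75 and 8.47 in CM-CKO heads, 8.87, 8.61, 8.56 and 8.44 in Het heads and 8.58, 8.30 and 8.25 in Control heads. The Zeb2 difference from Control was 0.32 (adjusted p = 0.126), or 0.38 with the replicate number as a block (adjusted p = 0.0367), and its 4 highest values were the 4 heads of slide 1, Het 1 among them.

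Foxp1, a forkhead repressor that acts in heart, blood and nervous system development, was the only member that passed in all 3 comparisons of CM-CKO heads. Its log2 levels were 7.62, 7.43, 7.53 and 7.29 in CM-CKO heads, 8.20, 8.27, 7.76 and 7.81 in CM-Het heads, 7.62, 8.22, 8.01 and 8.39 in Het heads and 8.12, 8.30 and 8.04 in Control heads. All 4 CM-CKO heads lay below all other heads, although Het 1 and CM-CKO 1 were both at 7.62 when rounded. Foxp1 fell by 0.68 ± 0.17 (SE) against Control, to 62.3% of its level (adjusted p = 0.0242), by 0.59 ± 0.16 against Het (adjusted p = 0.0289) and by 0.54 ± 0.16 against CM-Het (adjusted p = 0.0401). When slide was added as a block, the Foxp1 changes of −0.54, −0.45 and −0.37 did not pass (adjusted p = 0.139, 0.138 and 0.292). Within slide 1 the CM-CKO mean was 0.10 below Het 1, and within slide 3 CM-CKO 4 was 1.09 below Het 4, 0.88 below Control and 0.49 below CM-Het. The call against Control ended without CM-CKO 2 (adjusted p = 0.0647) and without Control 1, 2 or 3 (0.0696, 0.102 and 0.0529), that against Het without CM-CKO 2 or 4 or Het 2, 3 or 4 (0.0578 to 0.0831), and that against CM-Het without CM-CKO 2, 3 or 4, CM-Het 1 or 2, Het 3 or Control 1 (0.0513 to 0.125).

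Foxp1 lies on chromosome 6 (98925342 to 99522746, minus strand, GRCm38.p6) and has 3 start sites in the RefSeq promoter table. The 250 bases before each start were searched for the E-box letters CANNTG, which read the same on both strands, with overlapping matches counted, and all 3 windows held at least 1. The window with the most is shown with its E-boxes in capitals, because TWIST1 binds this motif and Foxp1 was the member with the most calls. Prrx1 (chromosome 1, 163245119 to 163315145, minus strand), which fell against Het, is shown beside it as a window with none. Both are written 5′ to 3′ on the minus strand, from RefSeq, GRCm38.p6.
Foxp1 chr6:99266516-99266765: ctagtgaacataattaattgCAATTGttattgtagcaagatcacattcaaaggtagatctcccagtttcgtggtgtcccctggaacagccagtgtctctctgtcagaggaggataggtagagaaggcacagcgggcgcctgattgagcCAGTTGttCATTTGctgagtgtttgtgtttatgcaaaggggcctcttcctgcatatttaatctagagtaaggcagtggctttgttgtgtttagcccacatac
Prrx1 chr1:163313651-163313900: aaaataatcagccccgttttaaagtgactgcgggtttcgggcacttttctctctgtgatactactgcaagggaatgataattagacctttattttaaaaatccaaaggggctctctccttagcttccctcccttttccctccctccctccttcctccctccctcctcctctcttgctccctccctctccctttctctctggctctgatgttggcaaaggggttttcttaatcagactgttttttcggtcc
The Foxp1 window holds 3 E-boxes, 2 of them separated by 2 bases, and the Prrx1 window holds 0. Among all 32851 promoter windows of that length, 66.2% hold at least 1 CANNTG, and 15 of the 30 windows found for 21 members do (50%). A pair of E-boxes 5 bases apart was found in 0.639% of all windows and in 0 of the 30. Such matches describe the letters only.

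Other forkhead factors did not pass in the fit by genotype. Foxc1, a factor of head mesoderm and periocular mesenchyme, had levels of 8.32, 7.94, 8.25 and 8.09 in CM-CKO heads and 8.60, 8.58 and 8.40 in Control heads, so that the groups did not overlap (−0.38, adjusted p = 0.118). Of all genes tested 20.1% did not overlap between those groups, and of the 28 members 5 did not: Foxc1, Foxf1, Foxp1, Msx1 and Osr2. Foxf1, a factor of mesenchyme beside the gut tube, was below background in all 4 CM-CKO heads and detected in all 3 Control heads, which makes it at least 1.16-fold lower in CM-CKO (adjusted p = 0.194). Foxd1 and Foxd2, known from stroma and facial mesenchyme, differed from Control by −0.04 and −0.08. Foxc2, the relative of Foxc1, had levels of 6.75, 6.66, 6.83 and 5.46 in CM-CKO heads, 6.13, 6.46, 5.94 and 6.10 in CM-Het heads, 7.14, 6.42, 6.19 and 6.25 in Het heads and 6.21, 6.21 and 5.99 in Control heads. CM-CKO 4 was the lowest of all heads, whereas the other 3 CM-CKO heads were higher than every head outside slide 1. Against Control the change was 0.29 by genotype alone and −0.50 with slide as a block (adjusted p = 0.0542). The blocked change passed against Het (−0.54, adjusted p = 0.0164) and CM-Het (−0.49, adjusted p = 0.0484). By genotype alone the changes against Het and CM-Het were −0.08 and 0.27, so the sign against CM-Het turned with the block.

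Among homeodomain factors Alx4, a paired-type factor of the frontonasal region and skull vault, had the largest change that passed. Its log2 levels were 8.71, 8.004, 8.13 and 7.53 in CM-CKO heads, 8.82, 8.86, 8.66 and 8.50 in CM-Het heads, 9.29, 8.96, 8.96 and 8.65 in Het heads and 8.80, 8.83 and 8.65 in Control heads. CM-CKO 2, 3 and 4 lay below every other head, and CM-CKO 1 was within the range of the other groups. Alx4 fell by 0.87 ± 0.19 (SE) against Het, to 54.6% of its level (adjusted p = 0.0109), and this call held when any single array was left out. The differences from Control (−0.66 ± 0.21, adjusted p = 0.0659) and CM-Het (−0.61 ± 0.19, adjusted p = 0.0559) did not pass. All 3 Alx4 changes passed in the fit with slide, at −1.09 against Control, −1.09 against Het and −0.997 against CM-Het (adjusted p = 0.00383, 0.00127 and 0.00453). Within slides CM-CKO was 1.01 (slide 1) and 1.12 (slide 3) below Het, 1.20 below Control (slide 3) and 1.04 below CM-Het (slide 3). The heads with the highest erythroid means, CM-CKO 4 and 2, had the lowest Alx4 levels, and with the erythroid covariate the changes were −0.10, −0.26 and 0.01 (adjusted p = 0.884, 0.726 and 0.992). A dimmer Alx4 probe, detected on 7 arrays, differed by −0.03 from Het.

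Prrx1, a paired-related factor of limb and face mesenchyme, had levels of 7.51, 7.36, 7.64 and 7.21 in CM-CKO heads, 8.06, 7.86, 7.70 and 7.64 in CM-Het heads, 7.96, 7.71, 8.02 and 7.83 in Het heads and 8.05, 7.87 and 7.51 in Control heads. All CM-CKO heads lay below all Het heads. Prrx1 fell by 0.45 ± 0.13 (SE) against Het (adjusted p = 0.0483), and the differences from Control (−0.38, adjusted p = 0.123) and CM-Het (−0.38, adjusted p = 0.0837) did not pass. Adding slide gave a Prrx1 change against Het of −0.47 (adjusted p = 0.0369), and within slides 1 and 3 it was −0.46 and −0.62. The Het call ended without any of CM-CKO 1, 2 or 4, CM-Het 2, 3 or 4, Het 1, 2, 3 or 4, or Control 2 (adjusted p = 0.0542 to 0.13). This probe is 1 of 2 Prrx1 probes whose signals differ between the deposited table and the authors' value table, in which the change was −0.07 (adjusted p = 0.448). Each of the 5 Prrx1 probes kept was also fitted on its own (limma). The probe used here then did not pass against Het (adjusted p = 0.0617), while another of the brighter ones did (−0.49, adjusted p = 0.0487). A different bright probe passed against Control (−0.56, adjusted p = 0.0396). A dim one, detected on 3 arrays, was 0.42 higher than in CM-Het (adjusted p = 0.0379).

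Msx1, a homeodomain target of BMP signals in face mesenchyme, had levels of 10.07, 9.94, 10.17 and 9.90 in CM-CKO heads and 10.29, 10.50 and 10.57 in Control heads, which did not overlap (−0.43, adjusted p = 0.0825). Adding slide gave −0.29 (adjusted p = 0.362). Alx1, the relative of Alx4 in the frontonasal region, differed by 0.16 from Control and 0.26 from CM-Het (adjusted p = 0.554 and 0.249). Barx1, a factor of molar and stomach mesenchyme, had levels of 6.83, 4.32, 7.00 and 6.70 in CM-CKO heads, 5.97, 6.41, 5.47 and 5.85 in CM-Het heads, 6.71, 7.50, 8.23 and 7.10 in Het heads and 6.71, 8.16 and 6.75 in Control heads. The spread among CM-CKO heads (SD 1.27) rests on CM-CKO 2, and no Barx1 difference passed (−0.99 against Control, 95% interval −2.16 to 0.17). Lhx8, a LIM factor of oral mesenchyme, was detected on 8 arrays and differed by −0.29 from Control.

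**Figure D3:**
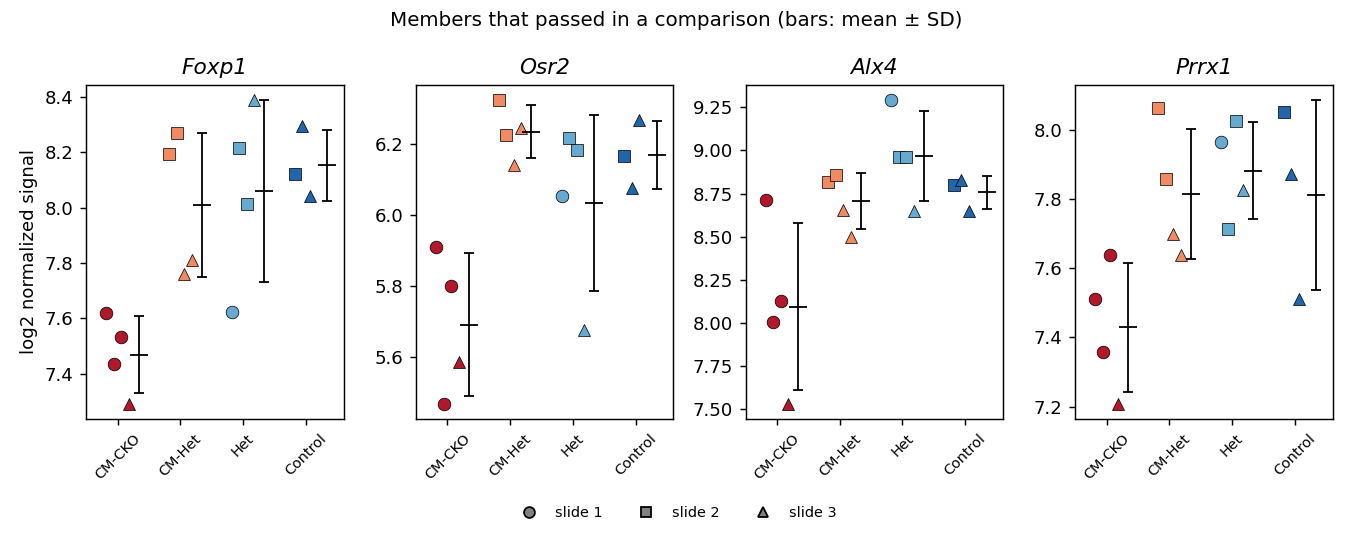
Log2 normalized signals of the 4 members that passed in at least 1 comparison are plotted by group, with 1 point per head, shapes for the slide and bars for the mean and SD. For Foxp1 the CM-CKO points (7.29 to 7.62) lie lowest with Het 1 (7.62) beside them, and for Alx4 only CM-CKO 1 (8.71) reaches the other groups.

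The odd-skipped factor Osr2, known from palate and tooth mesenchyme, had levels of 5.91, 5.47, 5.80 and 5.59 in CM-CKO heads, 6.32, 6.23, 6.14 and 6.25 in CM-Het heads, 6.05, 6.22, 6.18 and 5.68 in Het heads and 6.17, 6.08 and 6.27 in Control heads. CM-CKO heads lay below all CM-Het and Control heads, while Het 4 fell among them. Osr2 fell by 0.54 ± 0.12 (SE) against CM-Het, to 68.6% of its level (adjusted p = 0.0129), and by 0.48 ± 0.13 against Control (adjusted p = 0.0417). Against Het the difference of −0.34 did not pass (adjusted p = 0.103). Adding slide gave Osr2 changes of −0.56 against CM-Het (adjusted p = 0.0377) and −0.53 against Control (adjusted p = 0.0611), and within slide 3 they were −0.61 and −0.59. The Control call ended in all 10 other alternatives (among them no background correction, −0.20, adjusted p = 0.0604) and without CM-CKO 2 or 4, any CM-Het head or any Control head (adjusted p = 0.0538 to 0.145), and the CM-Het call ended without CM-CKO 2 (adjusted p = 0.0521) and with the mean of both Osr2 probes (−0.40, adjusted p = 0.0617). The second Osr2 probe, detected on all 15 arrays, differed by −0.26 from CM-Het (adjusted p = 0.352) and −0.40 from Control (adjusted p = 0.185). Osr1, its relative in lateral and intermediate mesoderm, was below background in all CM-Het and Control heads and was detected in 2 CM-CKO and 3 Het heads. A Het over Control fold of at least 1.08 follows for Osr1 (adjusted p = 0.902).

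Of the factors of paraxial mesoderm and somites 0 of 3 passed. Meox2 had levels of 4.86, 4.65, 4.77 and 4.43 in CM-CKO heads and 4.96, 5.33, 4.88 and 5.20 in Het heads, which did not overlap (−0.41, adjusted p = 0.0557). Its relative Meox1 differed by 0.39 from Het (adjusted p = 0.234). Tcf15, a basic helix-loop-helix factor that somites need to become epithelial, had levels of 5.26, 5.27, 5.25 and 5.17 in CM-CKO heads and 4.75, 5.16, 4.78 and 4.76 in Het heads (0.37, adjusted p = 0.181). Against Het 4 members did not overlap in all (Foxp1, Prrx1 and Meox2 below Het and Tcf15 above), where 11.7% of all genes did not.

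The T-box repressors Tbx2 and Tbx3, which act in heart, limb and arch tissue, did not pass. Tbx2 had levels of 5.82, 5.24, 5.86 and 6.00 in CM-CKO heads, 5.88, 5.87, 5.94 and 5.86 in CM-Het heads, 5.77, 6.71, 6.98 and 6.20 in Het heads and 5.95, 6.65 and 5.91 in Control heads. The largest Tbx2 difference was that from Het, at −0.68 (adjusted p = 0.0831), or −0.34 once slide was in the fit (adjusted p = 0.408). For Tbx3 the differences were −0.10 from Control, −0.39 from Het and 0.04 from CM-Het.

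Sox9, the master regulator of cartilage and a neural crest factor, had levels of 11.43, 11.08, 11.32 and 10.81 in CM-CKO heads, 11.54, 11.51, 11.54 and 11.48 in CM-Het heads, 11.65, 11.34, 11.42 and 11.51 in Het heads and 11.44, 11.52 and 11.36 in Control heads. CM-CKO heads lay below all CM-Het heads (−0.36, adjusted p = 0.0681), and in that comparison 3 members (Foxp1, Osr2 and Sox9) and 17.5% of all genes did not overlap. The difference of Sox9 from Control was −0.28 (adjusted p = 0.196) and from Het −0.32 (adjusted p = 0.112). Once slide was in the fit Sox9 passed in all 3 comparisons, at −0.54 against Control (adjusted p = 0.0198), −0.49 against Het (adjusted p = 0.013) and −0.62 against CM-Het (adjusted p = 0.0081). With the erythroid covariate these changes were 0.13, 0.13 and 0.09, and a second Sox9 probe gave −0.15, −0.13 and −0.36 by genotype alone.

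Ebf1, Ebf2 and Ebf3, helix-loop-helix factors of mesenchyme and neurons, and the COUP-TF receptor Nr2f2, found in venous and mesenchymal cells, lay lower in CM-CKO than in Het heads without passing. Ebf3 had levels of 9.66, 9.05, 9.47 and 9.02 in CM-CKO heads and 9.73, 9.62, 9.84 and 9.80 in Het heads, with CM-CKO 1 inside the Het range (−0.45, adjusted p = 0.0511). Nr2f2 had levels of 7.66, 7.60, 7.83 and 7.63 in CM-CKO heads and 7.78, 8.16, 7.91 and 8.25 in Het heads (−0.35, adjusted p = 0.0588). Ebf3 and Nr2f2 both passed against Het without background correction. Dimmer Nr2f2 probes, detected on all 15 arrays and fitted on their own, differed from Het by −0.14 and 0.19 (adjusted p = 0.503 and 0.625 by limma). A dimmer Ebf3 probe differed by −0.35 (adjusted p = 0.197 by limma). Against CM-Het, which also carries Cre, the differences were −0.11 for Ebf3 and −0.08 for Nr2f2. Ebf1 and Ebf2 differed from Het by −0.12 and −0.30.

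Slide and genotype can only partly be told apart here, since 3 of the 4 CM-CKO heads shared slide 1 with only Het 1. Among the members, Foxc2 and Zeb2 had all 4 slide 1 heads above all other heads, and 506 genes, or 4.35% of all tested, had slide 1 apart in the same or the opposite direction. In the fit with slide the members that passed against Control were Alx4 and Sox9, and against Het Alx4, Foxc2, Prrx1 and Sox9. Against CM-Het they were Alx4, Foxc2, Osr2 and Sox9. In that fit all were lower in CM-CKO heads, while by genotype alone Foxc2 was 0.27 higher than in CM-Het heads. These calls, 2, 4 and 4 of 28, stand beside 8.09%, 10.1% and 9.21% of all genes that passed in the same fit. The blocked fit rests on Het 1 for slide 1 and on CM-CKO 4, the head with the highest erythroid mean, for slide 3. The member median within slide 3 was −0.41 against Control, −0.48 against Het and −0.30 against CM-Het, and within slide 1 it was −0.13 against Het.

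**Figure D4:**
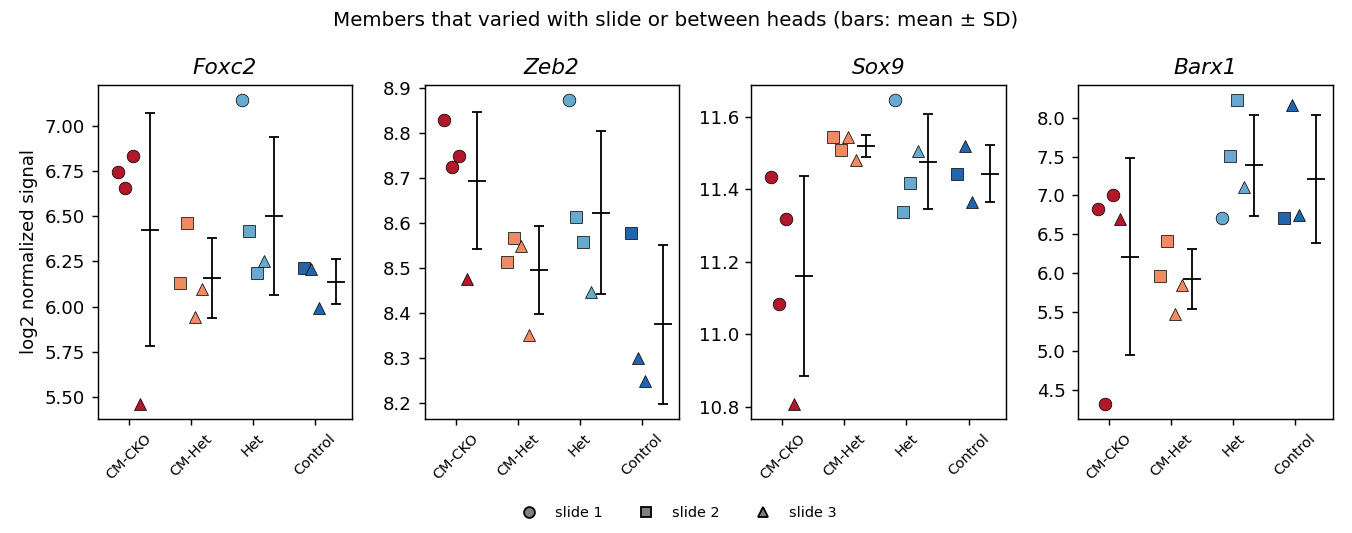
Log2 normalized signals of Foxc2, Zeb2, Sox9 and Barx1 are plotted by group, with 1 point per head, shapes for the slide and bars for the mean and SD. The circles of slide 1 lie highest for Foxc2 (6.66 to 7.14) and Zeb2 (8.72 to 8.87), Sox9 is lowest in CM-CKO 4 (10.81), and Barx1 in CM-CKO 2 (4.32).

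**Figure D5:**
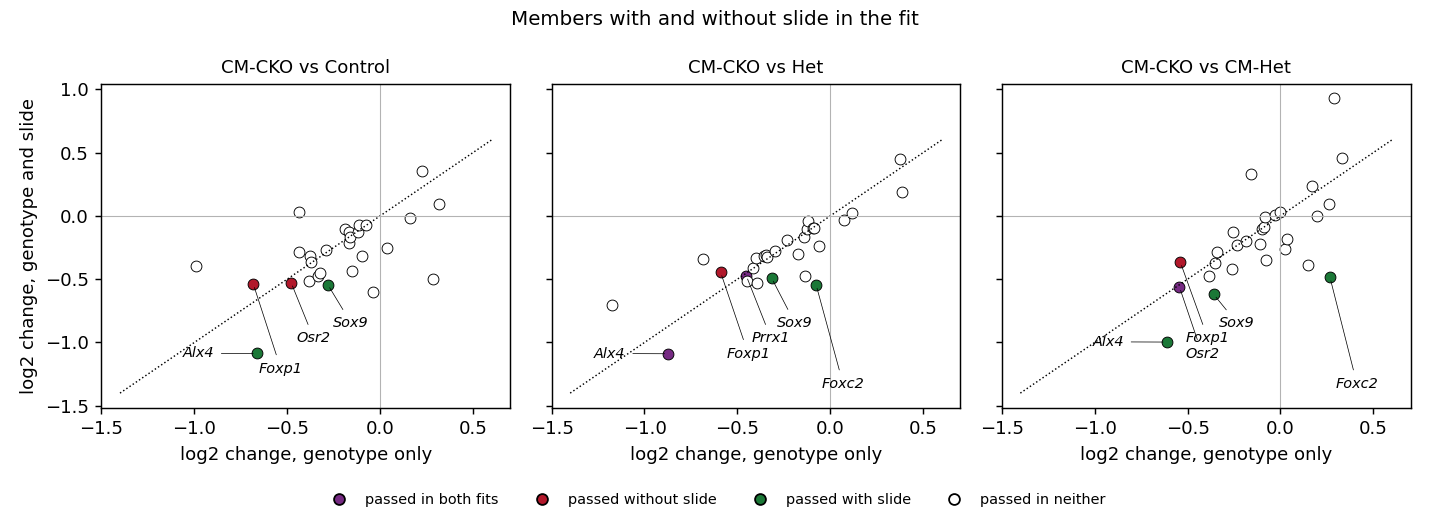
Each point is 1 of the 28 members, with its log2 change from genotype alone on the horizontal axis and with slide in the fit on the vertical axis, for CM-CKO against Control, Het and CM-Het heads. Alx4 lies below the dotted line of equal values in all 3 panels (−1.09, −1.09 and −0.997 with slide), while Foxp1 lies above it.

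Fewer genes passed between the groups without loss of both copies. In Het against Control heads 0 of 28 members and 0% of all genes passed (limma), with unadjusted p under 0.05 for 5.47% of all genes and for 2 members, Tcf15 (−0.49) and Osr1, whose Control heads were all below background. The member median was 0.04. Twist1 itself, with means of 8.97 in Het and 9.92 in Control heads, did not pass in this comparison, so changes of that size can be missed. Osr1 was the 1 member that did not overlap there, against 6% of all genes. In CM-Het against Control heads 0 of 28 members and 0% of all genes passed (limma), and Barx1 alone of the members, beside 3.55% of all genes, had an unadjusted p under 0.05. Barx1 was lower in all 4 CM-Het heads (5.47 to 6.41) than in all 3 Control heads (6.71 to 8.16), at −1.28 ± 0.55 (SE) with adjusted p = 1, and 1 member and 6.98% of all genes did not overlap in that comparison. The interaction, which sets the CM-CKO minus Het change against the CM-Het minus Control change, passed for 0 of 28 members and 1.07% of all genes (limma; 0.671% above 0 and 0.396% below). Unadjusted p under 0.05 was reached by 14.9% of all genes and by 6 members, Alx4 (−0.82), Meox2 (−0.60), Prrx1 (−0.46), Osr2 (−0.41) and Sox9 (−0.39) on the negative side and Tcf15 (0.66) on the positive side. In the fit with slide the interaction of Alx4 was −0.999 and passed (adjusted p = 0.0346), as did 2.26% of all genes.

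Among genes that act with these factors, the EMT effectors, which are adhesion molecules, cytoskeleton, matrix enzymes and TGF-beta pathway genes, mostly did not pass. Of 24 tested, 1 was higher and 1 lower in CM-CKO than in Control heads and 22 did not pass, with a median change of 0.08. That is 8.33% of the list, near the 7.23% of all genes that passed. The matrix metalloprotease Mmp2 fell by 0.49 ± 0.11 (SE, adjusted p = 0.0148), at 10.15, 10.24, 10.14 and 10.08 in CM-CKO heads, against 10.72, 10.55 and 10.65 in Control heads. The tight junction gene Tjp1 rose by 0.59 ± 0.17 (adjusted p = 0.049), with overlap of the groups at CM-CKO 4 (7.14). On slide 3 that head lay between Control 2 (6.87) and Control 3 (7.27), and above CM-Het 3 and 4 (6.91 and 6.93). The other CM-CKO heads (7.59 to 7.89) were on slide 1, which held no Control or CM-Het head, and Het 1 was at 7.32 there. E-cadherin (Cdh1), the target of the Snail repressors, differed by 0.33 (adjusted p = 0.198), N-cadherin (Cdh2) by 0.23 and vimentin (Vim) by −0.29. Against Het Mmp2 was again lower (−0.40, adjusted p = 0.0229) and the epithelial keratin Krt8 higher (0.52, adjusted p = 0.0219). Against CM-Het Mmp2 was lower (−0.55, adjusted p = 0.00344) and Tjp1 higher (0.67, adjusted p = 0.0165). These calls are 8.33% of the list in each comparison, where 8.47% (Het) and 9.91% (CM-Het) of all genes passed.

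Of 23 other mesenchyme regulators tested, 1 was higher and 2 lower in CM-CKO than in Control heads, with a median change of −0.10. Tcf3, which encodes an E protein partner of TWIST1, fell by 0.65 ± 0.14 (SE, adjusted p = 0.012), and all CM-CKO heads (7.16 to 7.30) lay below all Control heads (7.65 to 8.16). On slide 1 Het 1 was at 7.40, near the CM-CKO heads, while the other Het heads were at 7.77 to 8.02. On slide 3 CM-CKO 4 was at 7.24, against 7.89 and 7.65 in Control 2 and 3. Changes with slide in the fit are not given for this list. Twist2, the close relative of Twist1, fell by 0.59 ± 0.14 (adjusted p = 0.0223). Tbx1, which acts in pharyngeal mesoderm and endoderm, was at 8.27, 7.84, 8.23 and 8.01 in CM-CKO heads and 7.29, 7.41 and 7.15 in Control heads, a rise of 0.80 ± 0.15 (adjusted p = 0.00438). Against Het 4 of the 23 were lower (Tcf3, Twist2, Pdgfra and Pdgfrb), where 8.47% of all genes passed. Against CM-Het 3 were lower (Tcf3, Pdgfra and Pdgfrb), where 9.91% of all genes passed. Pdgfra, the receptor by which head mesenchyme responds to PDGF-A, fell by 0.49 ± 0.10 against Het (adjusted p = 0.00863) and by 0.56 ± 0.10 against CM-Het (adjusted p = 0.00418), and its interaction of −0.71 also passed (adjusted p = 0.0393).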

How the data were processed

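RNA of 15 mouse heads was measured on 1-colour Illumina bead arrays. The deposited signals are intensity values, neither normalized nor background-subtracted, per the file headers and their values. The deposited detection p-values were out of row order for 74.4% to 75.6% of entries per array (off by over 0.05) and were re-attached by rank. The Het 1 column held its log2 values from the authors' value table instead, so its p-values were averaged by rank over the other 14 arrays. The authors' value table is log2 of the quantile-normalized signals. For 42477 of 45281 probes it equalled the deposited signals treated that way within 0.02, and which table is right for the other 2804 is not known. Their software was not given in the sources used here.

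Signals were corrected with limma 3.58.1 (nec, offset 16) in R 4.3.3, quantile-normalized and put on the log2 scale. Probes with detection p under 0.05 on at least 3 arrays were kept (21869), and the brightest kept probe stood for its gene. Gene names came from the platform table (34885 probes with 1 name, 18 with several, 10378 with none) and were looked up in RefSeq by Entrez ID. Probe positions were not used here. The mean signal per array was 341.0 to 434.4, with 19204 to 19793 probes detected, and the number of arrays limits the precision. Where no head of a group detected a gene, its group was taken as below background and the fold is a bound, set against the detection threshold with means of log2 values. All groups were fitted together by genotype (lmFit, eBayes), and the script was tested on simulated data. P-values measure the spread between these heads. The members, lists, tests and alternatives were chosen with earlier results of these data known. Every member is accounted for, those that passed are given on every array, and genes of the 2 other lists were named where they passed against Control, at most 5 per list by size, with a few named beside them after their values were seen. Alternatives were other background correction, scaling, filter, probe rule, slide and replicate blocks, fewer arrays, the value table, an erythroid covariate and leaving out each array. Figures used matplotlib 3.10.9.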

Additional observations from a re-analysis of the deposited data

Results flagged for a closer look

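In 84 groups of 4 heads (the 28 tested members in CM-CKO, CM-Het and Het), 7 had a highest or lowest head whose gap to the nearest other head, divided by the range of the group, was above Dixon's 95% critical value. Chance flags about 1 in 20 such groups. Of the 7 heads, 5 were CM-CKO heads. Foxc2 was at 5.46 in CM-CKO 4, with the other CM-CKO heads at 6.66 to 6.83, and Foxd1 was at 5.98 in the same head, with the others at 7.08 to 7.23. Barx1 was at 4.32 in CM-CKO 2, with the others at 6.70 to 7.00. Foxd2 was at 4.80 in CM-CKO 3, with the others at 5.03 to 5.07, and Lhx8 was at 5.22 in CM-CKO 1, with the others at 4.49 to 4.58. Msx1 was at 9.98 in Het 1, with the other Het heads at 10.53 to 10.60. Tcf15 was at 5.16 in Het 2, with the others at 4.75 to 4.78.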

How the results depend on the processing

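Of 124 counts and medians recomputed under 11 alternatives, 106 stayed within 1.5 times the count or within the spread. Among these 106 are the counts for Het and CM-Het against Control, which stayed at 0 members where 0% of all genes passed by genotype. The members that passed against Control were 2 by genotype, and 1 without background correction, with median scaling, without the filter, with only the arrays compared or with the authors' value table. They were 0 with the replicate block and slide block together and 0 with the erythroid covariate. Against Het there were 3, and 5 without background correction or with median scaling, 0 with only the arrays compared and 0 with the erythroid covariate. Against CM-Het there were 2, and 4 with every probe on its own or with the slide block, 1 without the filter, 0 with both blocks and 0 with the erythroid covariate. The interaction had 0, and 1 with the slide block or the replicate block (Alx4). The cause of these shifts was not tested. Leaving out each array in turn gave 0 to 3 members against Control, 1 to 6 against Het, 0 to 4 against CM-Het, 0 in both other comparisons with Control and 0 to 1 in the interaction. The medians then ran from −0.32 to −0.10, −0.35 to −0.22, −0.16 to −0.05, −0.04 to 0.12 (Het against Control), −0.14 to −0.01 (CM-Het against Control) and −0.26 to −0.04. The labels do not say what a replicate number stands for, so the heads were not taken as paired. Same-numbered pairs correlated over 0.1 in 5 of 21 cases and differently numbered pairs in 5 of 63. Number and slide are partly mixed here: the highest pair, Het 1 with CM-CKO 1 (r = 0.33), also shared a slide. As a hint from the data, 9 of 15 heads were closest to a head of their own number in another group. With the replicate block alone 3 members passed against Control (Alx4, Foxp1 and, higher, Zeb2), 3 against Het (Alx4, Foxp1 and Prrx1) and 2 against CM-Het (Alx4 and Osr2). Over all genes, the calls against Control, Het and CM-Het were 841, 985 and 1152 by genotype, 31, 681 and 399 with both blocks, 241, 70 and 197 with the erythroid covariate, and 272, 333 and 851 with only the arrays compared. No call of the fit by genotype turned its direction. Foxc2, which passed as lower than CM-Het with the slide block, was 0.27 higher by genotype alone. Signal over background limits Foxf1, Osr1 and Lhx8, detected on 6, 5 and 8 of 15 arrays.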

Other observations

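Several members that did not pass in the fit by genotype were high in the same single heads. Het 3 and Control 2 had the highest levels of Barx1 (8.23 and 8.16) and of Lhx8 (5.65 and 5.37), 2 homeodomain factors of arch mesenchyme, and were also among the 3 highest heads for Tbx2 (6.98 and 6.65, with Het 2 at 6.71). Tbx3 was highest in Het 3 (8.57). These heads were noticed after the values were seen and come from 2 genotypes and 2 slides, so they are given as values only.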
